A study of Arabidopsis thaliana with 28 samples.

Results

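The bright steady genes are 69 Arabidopsis thaliana genes with a strong array signal and nearly the same mean signal in plants grown with and without sucrose. They were chosen from the 692 probes of 1 gene among the 3439 probes on the arrays. A gene was taken when its mean log2 signal over all 28 arrays lay in the top 25% of these 692 probes, at or above -1.14, and when the means of the groups differed by less than 0.5. Of the 173 probes in the top 25%, 74 met the limit on the difference. Of these NdhS, LHB1B2, PSBY, PIFI and PSB27 were left out by the rule. The values that chose the genes are the mean signal and the difference between the media, so both are given below as descriptions, and no test of the difference is read for them.

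The first group (pSuc, 14 arrays) was wild-type plants of the Columbia 0 ecotype on MS medium, a mineral medium for plant culture, that held 2% sucrose. The second group (H2O, 14 arrays) was the same ecotype on MS medium without the sucrose. All groups share the genotype and the basal medium, and the labels name no organ, age, culture or batch. Neighbouring replicate numbers of a group (1 and 2, 3 and 4, and so on) gave the most similar arrays for 26 of the 28 and were averaged to 7 sets of 2 arrays on each medium. On an axis over all probes from the mean of the H2O sets (0) to that of the pSuc sets (1), pSuc set 1 lay at -0.05 and H2O sets 1 and 2 at 0.51 and 0.46. The other sets lay between 1.0 and 1.22 on pSuc and between -0.22 and -0.03 on H2O, so values without these 3 sets are given where they matter. The number of arrays limits the precision, and since no label names separate cultures, the spread between sets may be technical.

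Sucrose acts in plants both as a carbon source and as a signal. Sugar feeding is known to lower the expression of many photosynthesis genes and to raise that of genes for storage and growth. Genes that keep their level under such a change often serve basic functions, and some are used as references for expression measurements. In bulk RNA, fewer cells of a type and less RNA per cell cannot be told apart.

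Signals below are log2 values after quantile normalization, on which a difference of 1 is a 2-fold change. Probes differ in how well they bind their RNA, so the order of the genes is one of array signal, not of transcript number. All 69 genes are annotated as protein coding, 23 of them on chromosome 1, 9 on chromosome 2, 15 on chromosome 3, 11 on chromosome 4 and 11 on chromosome 5. The 692 probes had 173, 124, 130, 120 and 143 genes on these chromosomes. Only 5 of the 69 have a symbol of their own in the annotation, and the other 64 are named by locus. None of the 69 genes was listed at 0 on any array, and this goes with the limit on brightness, since 1 of the 104 other probes in the top 25% and 197 of the 519 dimmer probes were listed at 0 on at least 1 array.

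The mean signal of the 69 genes ran from -1.12 to 4.63 with a median of -0.48, against a median of 0.15 for the 104 other probes in the top 25%. Only 10 of the 69 had a mean above 1, and 18 had a mean above 0, so most lay in the lower part of the top 25%. The mean of pSuc minus the mean of H2O was positive for 39 genes and negative for 30, with a median of 0.06, against a median of 0 over all 3439 probes. It was under 0.1 in size for 16 genes. A difference under 0.5 was common: 51.6% of the one-gene probes and 52.5% of all probes had one. In the limma fit, 30.0% of all probes had an adjusted p under 0.05, and 1 of the 69 genes, AT1G24040, did. The pSuc and H2O sets failed to overlap in 1.95% of all probes and in 0 of the 69 genes. Both counts follow from how the genes were chosen.

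**Figure D1:**
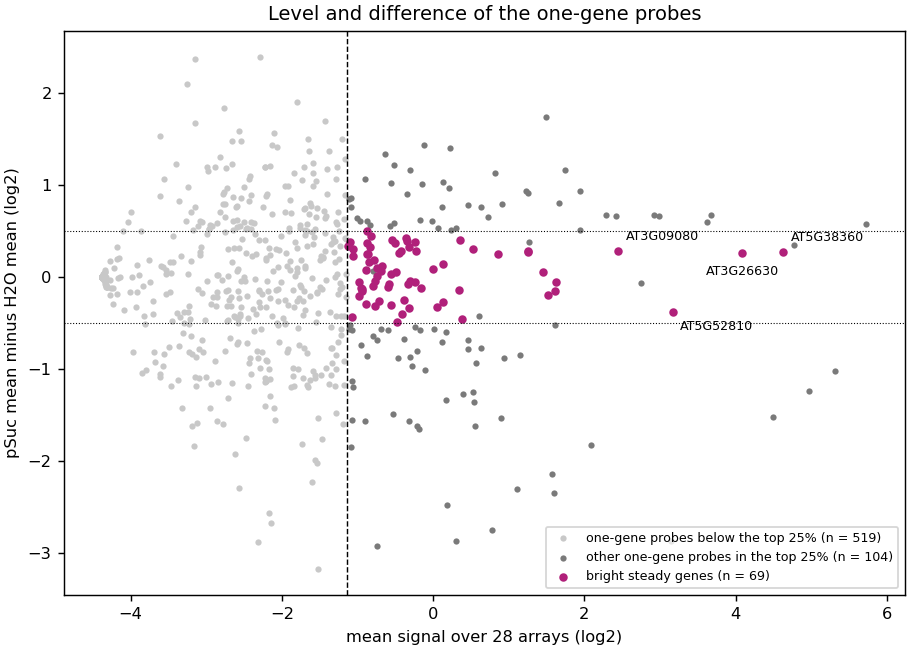
Mean log2 signal over 28 arrays (x axis) against the pSuc mean minus the H2O mean (y axis, log2) for the 692 one-gene probes. The 69 bright steady genes lie right of the dashed brightness limit of -1.14 and between the dotted lines at 0.5 and -0.5, with AT5G38360 (4.63) farthest right among them; the other points between the lines on that side are the 5 genes left out.

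The limits of the rule cut through a continuous range. AT1G24040 was the last gene inside the limit on the difference, at -0.62 on pSuc and -1.12 on H2O, a difference of 0.50 that is just under the limit before rounding. AT4G24750 and AT5G55570 followed at -0.49 and -0.46. Just outside lay AT1G49850, AT1G12800 and AT4G22190, with differences of 0.51, 0.51 and -0.52. At the limit on brightness, AT5G06790, AT5G65360 and OTP70 were inside with means of -1.12, -1.09 and -1.07. AT2G30320, AGL103 and AT5G49590 had small differences and were outside with means of -1.15, -1.15 and -1.16.

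The strongest of the 69 genes was AT5G38360, the probe with rank 17 by mean signal among all 3439. Its lowest, median and highest log2 signals were 4.63, 4.71 and 5.003 in the pSuc sets, against 4.18, 4.48 and 4.90 in the H2O sets. The ranges of the media overlapped, and the pSuc sets were packed more closely (SD 0.13, n = 7) than the H2O sets (SD 0.30, n = 7). In the deposited intensities its median was 27.9 on pSuc and 22.7 on H2O, on a scale whose highest value is 100.

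AT3G26630 was next, with rank 28. It encodes a pentatricopeptide repeat protein, of a large plant family that binds organelle RNA. Its lowest, median and highest signals were 3.94, 4.21 and 4.51 in the pSuc sets, against 3.60, 4.01 and 4.49 in the H2O sets. It lay among the 15 steadiest genes as well, with an SD of 0.28 over the 14 sets, as did AT5G38360 with 0.26. These were the only 2 genes of the 69 with a mean above 4.

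AT5G52810 and AT3G09080, next by signal, were far less steady. AT5G52810 encodes a reductase that acts in the synthesis of pipecolic acid, a signal of systemic plant immunity. Its signals were 1.77, 3.35 and 4.02 (lowest, median, highest) in the pSuc sets, against 3.11, 3.31 and 3.84 in the H2O sets. The pSuc sets fell apart into sets 2, 4 and 6, between 1.77 and 2.27, and sets 1, 3, 5 and 7, between 3.35 and 4.02. In pSuc set 6 the arrays themselves disagreed, with 3.28 on array 11 and 0.67 on array 12. AT3G09080 had signals of 1.71, 3.01 and 3.26 in the pSuc sets, against 1.25, 2.48 and 2.996 in the H2O sets. Here pSuc sets 2, 3 and 5 and H2O sets 1 and 2 were low, at or below 2.06, and the other 9 sets lay between 2.46 and 3.26.

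AT1G74470, which encodes geranylgeranyl reductase, had a mean of 1.52. The enzyme makes the phytyl chain used for chlorophyll, tocopherol and phylloquinone. Its signals were 1.10, 1.41 and 1.99 in the pSuc sets, against 0.88, 1.65 and 2.06 in the H2O sets. The difference of the means was -0.19, within the SDs of 0.29 on pSuc and 0.38 on H2O (n = 7 each), and the pSuc range lay within the H2O range. AT1G74470 kept a difference under 0.5 in every alternative tried.

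RAP74, which encodes the large subunit of the general transcription factor TFIIF, had signals of 0.75, 1.54 and 1.73 in the pSuc sets, against 0.61, 1.11 and 1.75 in the H2O sets. The SDs were 0.39 and 0.37 (n = 7 each), so the media also had a similar spread. AT3G03890 had 0.16, 1.14 and 1.57 in the pSuc sets, against 0.03, 0.83 and 1.08 in the H2O sets. The low set was number 5 on pSuc, and the arrays of that set differed by 1.94, with array 10 the lower one. In H2O set 5 array 10 was also the lower one, by 1.71.

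AT3G47650, a DnaJ-like zinc finger protein that acts in the assembly of Rubisco, had 0.27, 0.66 and 1.45 in the pSuc sets, against 0.21, 0.35 and 0.68 in the H2O sets. The H2O sets were packed closely (SD 0.16, n = 7), and the highest pSuc value was that of set 1. The rest of the 20 strongest genes had means between -0.16 and 1.63. Among them AT2G39360, which encodes a receptor-like kinase, had 0.28 ± 0.50 on pSuc and 0.42 ± 0.53 on H2O (SD, n = 7). AT2G22890, related to the plastid desaturase that acts on phosphatidylglycerol, had 0.04 ± 0.33 on pSuc and -0.05 ± 0.23 on H2O (SD, n = 7). AT1G62150 of the mTERF family closed the 20, with -0.22 ± 0.61 on pSuc and -0.10 ± 0.20 on H2O (SD, n = 7). Its pSuc sets 2 and 7, at 0.94 and 0.21, were above all H2O sets, which ended at 0.16.

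**Figure D2:**
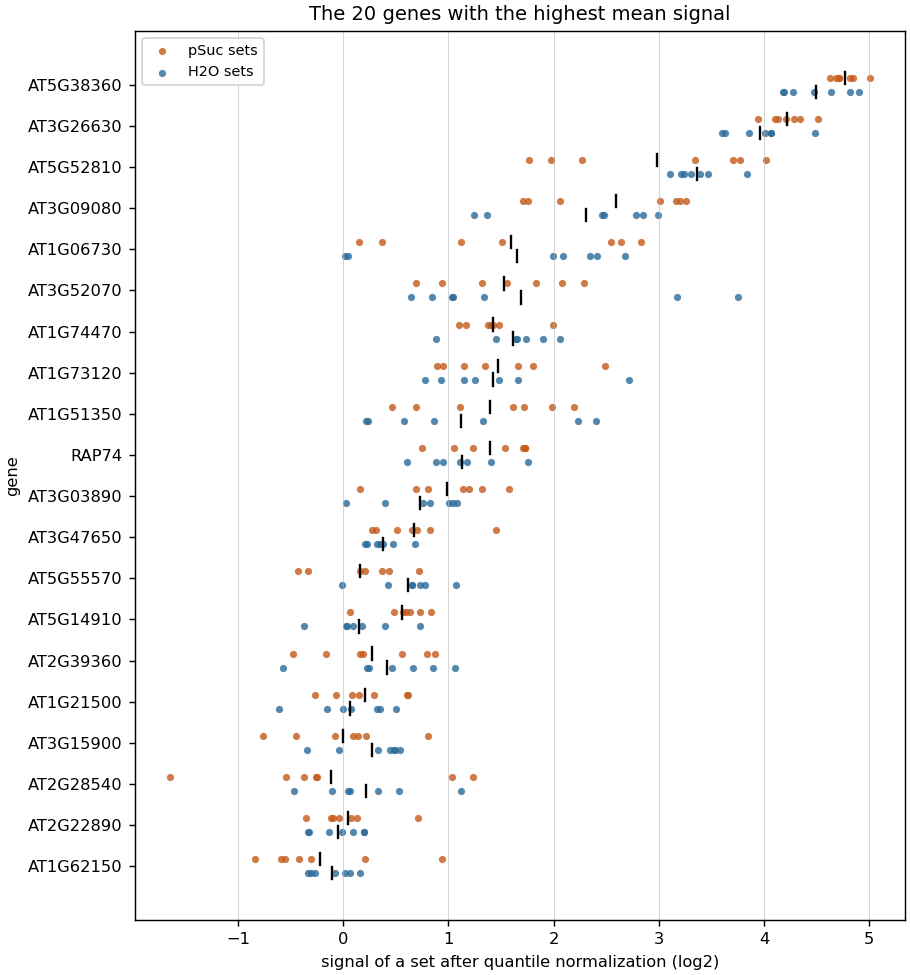
Log2 signal of each of the 7 pSuc sets and the 7 H2O sets (points) and the group mean (black bar) for the 20 bright steady genes with the highest mean. AT5G38360 and AT3G26630 keep narrow ranges near 4 to 5, whereas AT5G52810, AT3G09080, AT1G06730 and AT3G52070 have nearly equal group means with sets that spread over 2 units or more on at least one medium or between the media.

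A small difference between group means did not always go with a small spread between sets. The SD over the 14 sets had a median of 0.42 for the 69 genes and ran from 0.23 to 1.08. It had a median of 0.67 for the 104 other probes in the top 25% and 0.54 over all one-gene probes. That SD holds the difference between the media, which the rule kept small. Within the groups the median SD was 0.40 for the 69 genes, against 0.53 for the other probes in the top 25%. On pSuc it was 0.45 against 0.57, and on H2O 0.37 against 0.40. The SD within groups is tied to the rule as well, since pSuc set 1 lay near the H2O sets over all probes. A difference between the media thus widens it, so nothing is read from the lower SD of the 69 genes. The median SD between the 2 arrays of a set was 0.17 for the 69 genes and for the other probes in the top 25%. The range over the 14 sets was above 1 for 64 of the 69 genes and above 2 for 10. Of the 692 one-gene probes, 577 had a range above 1 and 280 above 2. The limit on the difference also bears on this range, so nothing is read from the comparison. In 42 of the 69 genes the pSuc sets had the larger SD, as they did in 404 of the 692 one-gene probes.

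The precision of the means was limited. The half-width of the 95% interval of the difference, from the limma fit, had a median of 0.45 for the 69 genes and exceeded 0.5 for 25 of them. A mean difference near 0 thus left room for a true difference of that size in either direction.

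The steadiest gene by the SD over the 14 sets was AT4G24930, which encodes a protein of the thylakoid lumen, the space enclosed by the photosynthetic membranes. Its signals were -1.06, -0.54 and -0.27 (lowest, median, highest) in the pSuc sets, against -1.05, -0.65 and -0.47 in the H2O sets. The H2O range lay within the pSuc range, and the whole range over the 14 sets was 0.78. AT5G55580 (mTERF9), a chloroplast protein of the mTERF family, followed with an SD of 0.25. Its signals were -0.71, -0.25 and -0.04 in the pSuc sets, against -0.57, -0.23 and 0.30 in the H2O sets. All pSuc sets but set 2 lay between -0.29 and -0.04, though single arrays of these sets reached lower, with pSuc array 11 at -0.60.

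AT1G33250 had -0.46 ± 0.31 on pSuc and -0.51 ± 0.25 on H2O (SD, n = 7), and its SD over the 14 sets was 0.27. AT5G14590, an isocitrate dehydrogenase, which links the citric acid cycle to amino acid synthesis, had signals of -1.22, -0.79 and -0.16 in the pSuc sets, against -1.09, -1.03 and -0.81 in the H2O sets. The H2O sets of this gene had the smallest SD within a group among the 69 genes, 0.11 (n = 7), and the pSuc sets had 0.35. PPDK, pyruvate orthophosphate dikinase, which makes phosphoenolpyruvate from pyruvate, had -1.27, -0.84 and -0.16 in the pSuc sets, against -1.35, -0.90 and -0.56 in the H2O sets. The SDs were 0.37 on pSuc and 0.24 on H2O. AT1G51550, which encodes an F-box protein with kelch repeats, of the kind that selects proteins for breakdown, had -0.79 ± 0.37 on pSuc and -0.75 ± 0.26 on H2O (SD, n = 7).

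AT3G54210, which encodes a ribosomal protein of the plastid, had signals of -1.57, -0.91 and -0.45 in the pSuc sets, against -1.53, -1.20 and -0.75 in the H2O sets. TCP15, a transcription factor of the TCP family that acts in growth and cell division, had -0.51 ± 0.43 on pSuc and -0.26 ± 0.17 on H2O (SD, n = 7). The low pSuc values reached -1.09, below the lowest H2O value of -0.50. The 15 steadiest genes had SDs over the 14 sets from 0.23 to 0.34, and 5 of them were among the 20 strongest: AT5G38360, AT3G26630, AT2G22890, AT3G47650 and AT1G74470. With each array centred on its median, the differences of AT5G38360, AT3G26630 and AT3G47650 exceeded 0.5.

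AT3G19120 was among the 15 steadiest by its set means, with -0.54 ± 0.35 on pSuc and -0.57 ± 0.25 on H2O (SD, n = 7), but not by its arrays. Its arrays 7 and 8 had 1.33 and -1.64 on pSuc, against 0.46 and -0.97 on H2O. The SD between the arrays of a set was 0.74, the highest of the 69 genes. Averaging over these arrays gave set means close to the other sets. AT2G33180, also among the 15 steadiest, had an SD between the arrays of a set of 0.39, above its 0.31 over the 14 sets. Its arrays 3 and 4 on pSuc had -1.68 and -0.27. The remaining genes of the 15 had a smaller SD between arrays than over sets. The values were close for AT1G33250 (0.26 and 0.27) and AT5G55580 (0.24 and 0.25).

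**Figure D3:**
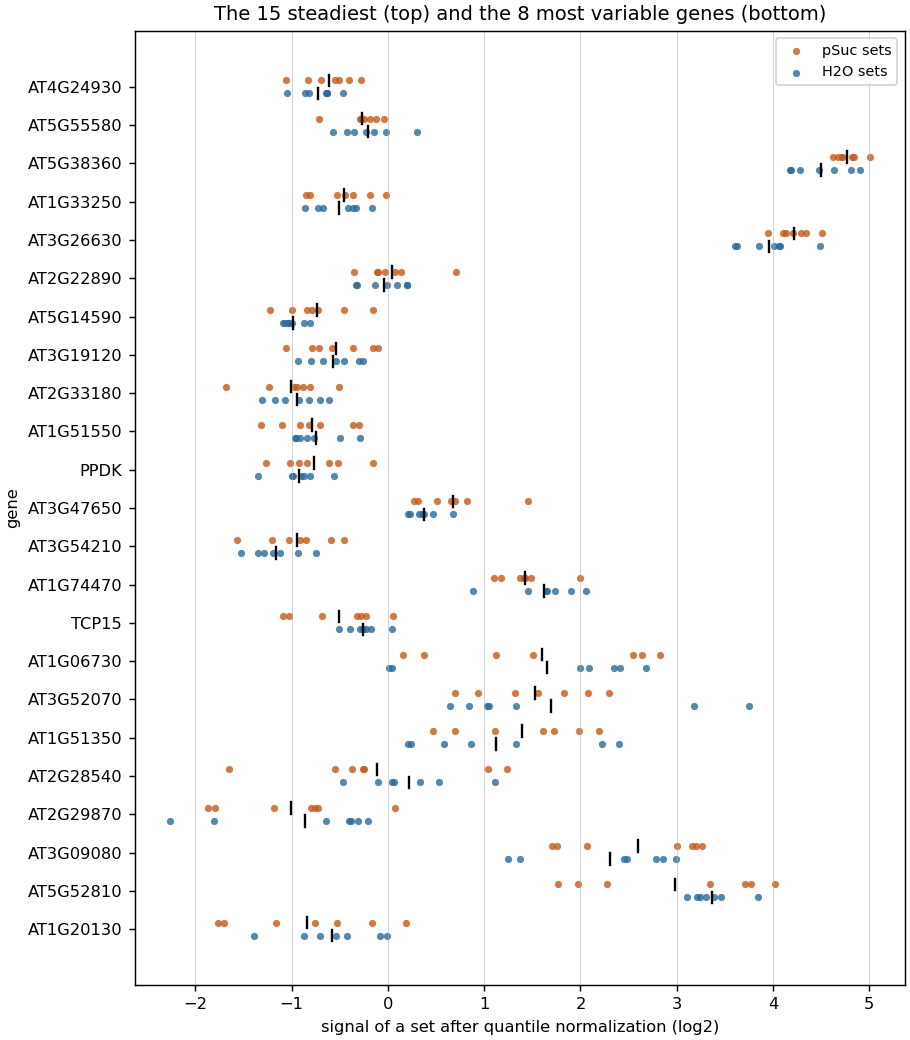
Log2 signal of each pSuc set and H2O set (points) and the group mean (black bar) for the 15 bright steady genes with the smallest SD over 14 sets (top, 0.23 to 0.34) and the 8 with the largest (bottom, 0.62 to 1.08). In the lower block the group means lie close together although single sets lie up to 3.10 apart.

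At the other end, 8 genes had SDs over the 14 sets from 0.62 to 1.08, and 6 of these were among the 20 strongest. The largest SD was that of AT1G06730, a carbohydrate kinase of the pfkB family. Its means were 1.60 on pSuc and 1.65 on H2O, a difference of -0.06. Its signals were 0.15, 1.51 and 2.83 (lowest, median, highest) in the pSuc sets, against 0.01, 2.09 and 2.68 in the H2O sets. H2O sets 1 and 2 lay at 0.01 and 0.05, while H2O sets 3 to 7 lay between 1.99 and 2.68. The pSuc sets spread over the whole range, with sets 1, 2 and 3 at 2.55 or above and sets 5 and 7 at 0.37 and 0.15.

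AT3G52070 showed the opposite order. H2O sets 1 and 2 were at 3.18 and 3.75, above all other sets, and H2O sets 3 to 7 lay between 0.65 and 1.33. The pSuc sets lay between 0.70 and 2.29. The group means were 1.53 on pSuc and 1.69 on H2O, while H2O sets 3 to 7 alone averaged 0.98. Without pSuc set 1 and H2O sets 1 and 2 the difference was 0.69. AT1G51350 had the same form, with H2O sets 1 and 2 at 2.40 and 2.23, H2O sets 3 to 7 between 0.21 and 1.33, and the pSuc sets between 0.47 and 2.19.

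AT2G29870 had H2O sets 1 and 2 at -1.80 and -2.27, with H2O sets 3 to 7 between -0.64 and -0.21. Its pSuc sets lay between -1.87 and 0.07, with set 1 the highest. AT2G28540 had pSuc sets 3 and 5 at 1.04 and 1.23 and pSuc set 6 at -1.65, against H2O sets between -0.47 and 1.12. AT1G20130 had signals of -1.76, -0.76 and 0.19 in the pSuc sets, against -1.39, -0.54 and -0.01 in the H2O sets. These genes met the rule with sets that lay further apart than the limit on the difference.

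The sets that stood apart over all probes were not equally apart in the 69 genes. H2O sets 1 and 2 both lay on the same side outside the range of H2O sets 3 to 7 in 33 genes (47.8%), near the 43.8% of all probes and the 49.0% of the 104 other probes in the top 25%. pSuc set 1 lay outside the range of the other pSuc sets in 20 genes (29.0%), which is within the shares of 14.5% (set 4) to 44.9% (set 2) that the other pSuc sets had for the same genes. Over all probes pSuc set 1 lay outside in 49.0%, and the other pSuc sets in 15.9% (set 3) to 24.4% (set 2). The rule limited the difference between the media, the axis on which pSuc set 1 stood apart. Nothing is thus read from the lower share of set 1 in the 69 genes. Without these 3 sets, the difference stayed under 0.5 in 52 of the 69 genes and was at or beyond it in 17, with a range from -0.88 (AT1G06730) to 0.87 (AT1G51350). AT3G15140, a nuclease of the plastid that acts on ribosomal RNA, had a difference of 0.43 with all sets and 0.84 without the 3. AT3G09080 had 0.28 with all sets and -0.19 without them. What sets these 3 apart was not tested.

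Each set had most of the 69 genes near their own mean. The share of the genes within 0.5 of the mean over all arrays ran from 63.8% in pSuc set 2 to 91.3% in H2O set 4. The limit on the difference between the media favours such values, so the shares describe the sets and are not set against those of other probes. pSuc set 2 was the highest of the 14 sets for 13 genes and pSuc set 5 for 11. H2O set 3 was the lowest for 10 genes and pSuc set 6 for 9. H2O set 4 was the highest for 1 gene and the lowest for 1 gene.

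**Figure D4:**
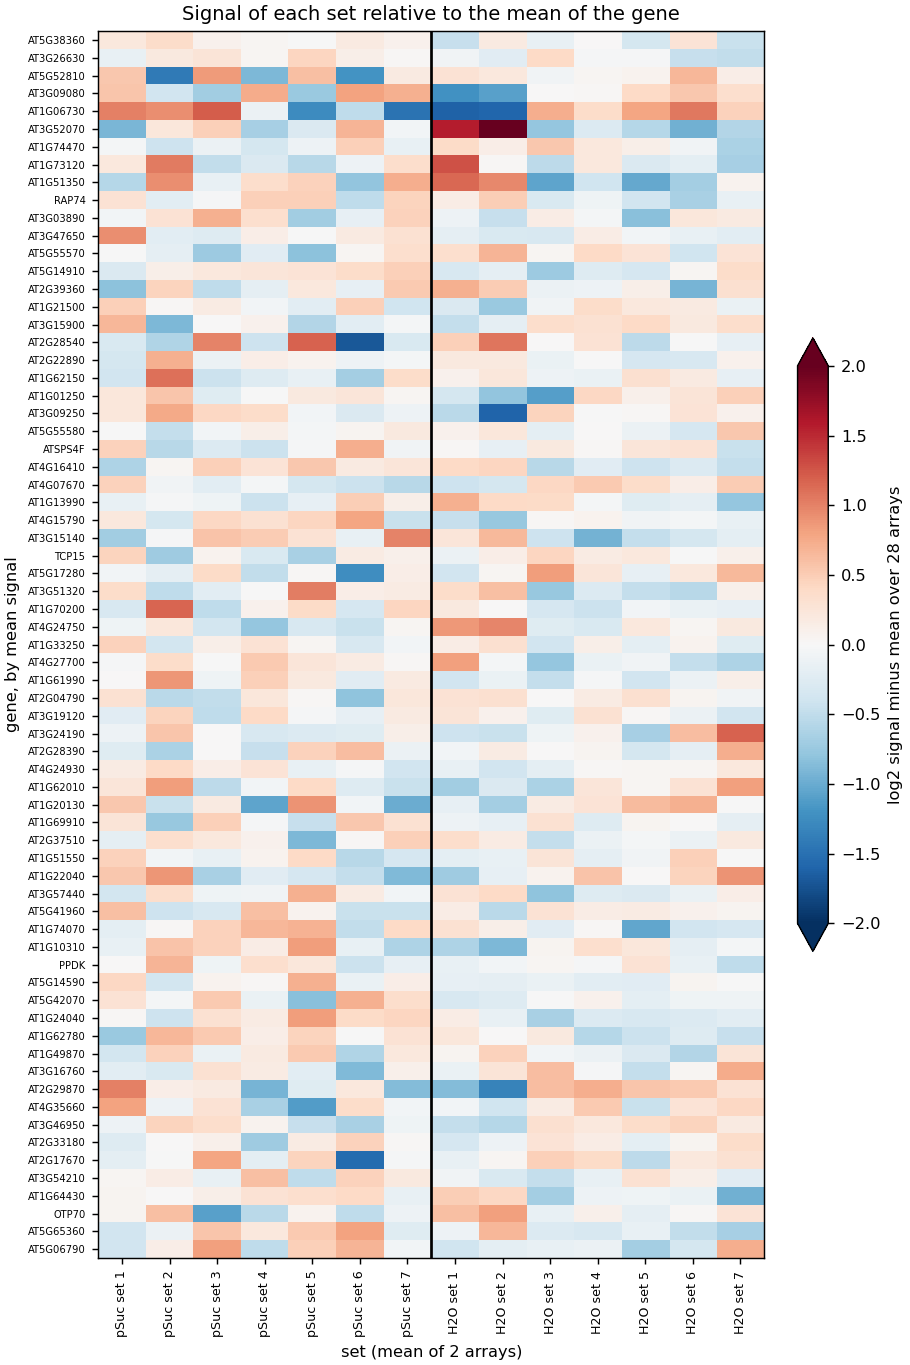
Log2 signal of each set minus the mean of the gene over 28 arrays, for the 69 bright steady genes (rows, by mean signal) in the 7 pSuc sets and the 7 H2O sets (columns); the colour scale ends at 2 and -2. H2O set 4 is pale for most genes, with 91.3% of the genes within 0.5 of their mean, whereas AT1G06730 and AT3G52070 have strong colours of opposite sign in H2O sets 1 and 2.

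By known role, 33 of the 69 genes were placed in groups from general knowledge of Arabidopsis genes, and 36 were given no role. The groups were formed after the genes were known, so they describe the genes and are no evidence of a theme. Role groups were not counted among the other one-gene probes, so their sizes cannot be set against a share over all probes. Genes of organelle gene expression were the largest group, with 12 genes, a median signal of -0.49 and differences from -0.43 to 0.43. Their products act on RNA or translation in chloroplasts and mitochondria. Next to AT3G26630 it held the pentatricopeptide repeat genes AT3G51320, AT2G17670 and OTP70. OTP70, named for organelle transcript processing, had -1.28 ± 0.54 on pSuc and -0.85 ± 0.37 on H2O (SD, n = 7). AT2G17670 had -1.09 ± 0.73 on pSuc and -0.88 ± 0.35 on H2O, and pSuc set 6 was lowest at -2.53. AT1G70200, an RNA-binding protein of the chloroplast, had -0.32 ± 0.59 on pSuc and -0.58 ± 0.21 on H2O (SD, n = 7).

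Genes of the mTERF family made up 5 of these 12. The proteins are related to an animal factor that ends mitochondrial transcription, and in plants they act in the expression of organelle genomes. Of 35 listed family genes 8 had a one-gene probe, 6 of these 8 were in the top 25% and 5 met the rule. Of all 692 one-gene probes, 173 were in the top 25% by definition and 69 met the rule. With only 8 family genes measured, nothing is read from these counts. AT1G61990 had -0.34 ± 0.38 on pSuc and -0.74 ± 0.22 on H2O (SD, n = 7). AT1G62010 had -0.66 ± 0.49 on pSuc and -0.72 ± 0.54 on H2O, and AT3G46950 had -1.02 ± 0.40 on pSuc and -0.90 ± 0.41 on H2O. AT1G61990, AT1G62010 and AT1G62150 are near neighbours on chromosome 1 and similar in sequence, so their probes may share signal. The bright member outside the limit was AT4G09620, at 0.13 ± 0.50 on pSuc and 0.81 ± 0.42 on H2O (SD, n = 7). The dim members AT1G79220 and AT3G18870 had means of -2.22 and -2.63, with differences of -1.10 and -0.42.

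The 6 genes of photosynthesis and the thylakoid had differences from -0.19 to 0.44 and SDs over the 14 sets from 0.23 to 0.49. They were AT1G74470, AT3G47650, AT2G22890 and AT4G24930 from above, with AT1G74070 and AT3G24190. AT1G74070, a protein of the cyclophilin family, which helps proteins fold, had -0.59 ± 0.46 on pSuc and -1.04 ± 0.44 on H2O (SD, n = 7). AT3G24190, a protein of the ABC1-like kinase family, had -0.62 ± 0.31 on pSuc and -0.55 ± 0.66 on H2O. Its H2O range, from -1.25 to 0.59, held all pSuc sets.

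The 6 metabolic enzymes had differences from -0.39 to 0.32. ATSPS4F, a sucrose phosphate synthase, which makes the precursor of sucrose, had signals of -0.86, -0.38 and 0.42 (lowest, median, highest) in the pSuc sets, against -0.75, -0.29 and -0.03 in the H2O sets. The H2O range lay within the pSuc range. AT1G10310, a reductase of pterin aldehydes, compounds of folate metabolism, had medians of -0.69 on pSuc and -0.88 on H2O (SD 0.50 and 0.45, n = 7 each). PPDK, AT5G14590, AT5G52810 and AT1G06730 completed the group, and its SDs over the 14 sets spanned 0.28 (AT5G14590) to 1.08 (AT1G06730).

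The 4 genes of transcription and chromatin were RAP74, TCP15, AT1G01250 and AT5G65360. AT1G01250, a transcription factor of the ERF family, had -0.09 ± 0.25 on pSuc and -0.37 ± 0.62 on H2O (SD, n = 7). AT5G65360 encodes a histone H3 and had -0.90 ± 0.46 on pSuc and -1.29 ± 0.42 on H2O. Other histone H3 genes are nearly identical, so the probe may measure several of them.

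The 5 genes of signalling, protein turnover and traffic had differences from -0.32 to 0.09. The receptor-like kinase gene AT1G69910 had -0.69 ± 0.49 on pSuc and -0.79 ± 0.19 on H2O (SD, n = 7), and the kelch F-box gene AT1G22040 had -0.93 ± 0.64 on pSuc and -0.61 ± 0.53 on H2O. AT2G28390 encodes MON1, a SAND family protein of vacuolar traffic whose transcript is widely used as a reference in quantitative PCR. It was the only one of 18 listed reference genes with a one-gene probe here. Its signals were -1.23, -0.70 and 0.02 in the pSuc sets, against -0.94, -0.58 and 0.13 in the H2O sets. Its difference of -0.11 was small beside the SDs of 0.46 on pSuc and 0.34 on H2O (n = 7 each). Its SD over the 14 sets, 0.39, ranked 27 from the steadiest of the 69 genes.

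How steady the genes looked depended on the scaling of the arrays. The median difference of the 69 genes was -0.37 in the values as deposited and 0.25 after median centring, which sets all arrays to the same median. These scalings moved the median of all probes to -0.31 and 0.31. Under 0.5 were 45 of the 69 genes as deposited and 54 with median centring, and 30 under these scalings and quantile normalization alike. The sign of a difference was positive for 39 genes after quantile normalization, for 10 as deposited and for 55 with median centring, so the sign of single genes is not read. AT5G38360 had differences of 0.27, 0.39 and 1.01 under quantile normalization, as deposited and with median centring. AT3G26630 had 0.26, 0.28 and 0.90, and AT3G47650 had 0.30, 0.04 and 0.66, in the same order. OTP70 had -0.43, -1.06 and -0.44 in the same order.

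A difference under 0.5 in every alternative of scaling, floor and sets was found for 22 of the 69 genes. The strongest of these were AT1G74470 and AT1G73120, with means of 1.52 and 1.45. AT2G22890, AT5G55580, ATSPS4F, AT4G24930, PPDK, AT5G14590 and AT3G54210 were also among them. The 22 genes were counted after the values were known and are a description of these arrays.

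**Figure D5:**
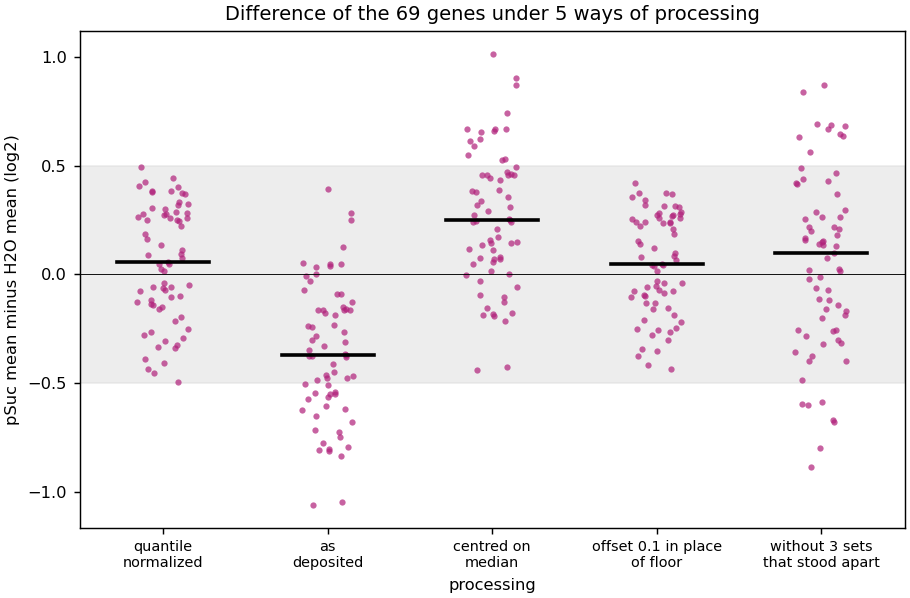
Mean of pSuc minus mean of H2O (y axis, log2) for the 69 bright steady genes (points) and their median (black bar) under 5 ways of processing (x axis). The grey band marks differences under 0.5: 69 genes lie in it with quantile normalization or an offset of 0.1, 45 as deposited, 54 with median centring and 52 without the 3 sets that stood apart.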

How the data were processed

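The data were 28 arrays of total RNA, 14 per group, grouped by the sample titles. The deposited table gives an unlogged intensity for each probe on each array. How the authors scanned the arrays and corrected or normalized the signals is not given in the sources used here. Lower values were set to 0.0483, which 5% of the positive values lie under, then log2 transformed and quantile normalized with limma 3.58.1 in R 4.3.3. Consecutive arrays of a group were averaged to 7 sets per group, and limma (lmFit, eBayes, Benjamini-Hochberg over 3439 probes, threshold 0.05) compared them; it was tested on simulated data. The SD is over sets. Between 409 and 601 probes per array were at 0.

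Genes were named through the platform annotation and the RefSeq table of assembly TAIR10.1: 692 probes had 1 gene, 870 several and 1877 none listed, and 690 of the 692 matched. No build is named for the probes, so no positions are printed. The members and lists were chosen with earlier results of these data known. Named were the 20 strongest, the 15 steadiest, the 8 most variable, 3 genes each side of each limit, members with a known role and listed reference genes. Planned keyword classes found only 3 members, since the table has no descriptions, and roles of genes known by locus are background knowledge. The planned comparisons of promoters and proteins were not made, as no sequences were at hand.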

Additional observations from a re-analysis of the deposited data

Results flagged for a closer look

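For the 52 named genes, Dixon's test found 1 set well away from the remaining sets in 5 of the 104 gene and medium combinations. Chance flags about 1 in 20 groups. For AT1G74470, pSuc set 6 was highest at 1.99 (log2), while the other pSuc sets had 1.10 to 1.48 (gap over range 0.571). For AT5G55580, pSuc set 2 was lowest at -0.71, against -0.29 to -0.04 (gap over range 0.636). By array it was less apart: pSuc arrays 3 and 4 of set 2 had -0.87 and -0.55, and array 11 of set 6 had -0.60. Array 12 of set 6 had 0.23. For AT2G17670, pSuc set 6 was lowest at -2.53, against -1.19 to -0.20 (gap over range 0.575). For AT5G65360, H2O set 2 was highest at -0.43, against -1.75 to -1.20 in the other H2O sets (gap over range 0.579). By array this set was less apart: H2O array 2 of set 1 had -0.48, against -0.37 and -0.49 on arrays 3 and 4 of set 2. Set 1 was lower through its array 1, at -1.92. For AT5G06790, H2O set 7 was highest at -0.39, against -1.80 to -1.24 (gap over range 0.606).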

How the results depend on the processing

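The number of genes that met the rule was 69, and 66 as deposited, 70 with median centring, 79 with an offset of 0.1 and 57 without the 3 sets that stood apart. Of the 69 genes 45, 54, 68 and 51 were among these. Leaving out 1 set gave 67 to 75 genes. A limit of 0.25 on the difference left 33 genes, and the top 10% by mean left 17. The number of probes called by limma was 1033 (605 higher and 428 lower on pSuc). It was 1657 without the 3 sets, 1710 with 28 arrays as separate samples and 764 to 1431 with 1 set left out. It was 928 as deposited (189 higher and 739 lower) and 1509 with median centring (1076 higher and 433 lower). Replicate numbers are shared by the groups, but same-numbered sets deviated together with correlations from -0.52 to 0.13, so they were not paired. With the set number as a replicate block 416 probes were called, and with the array number as a block on 28 arrays, chosen after seeing the data, 1611. For the 52 named genes, 30 of 936 differences moved by more than the SD within groups, 24 as deposited and 6 with median centring. The cause of these changes was not tested.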

Other observations

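The gap between the arrays of a set, taken as the odd minus the even replicate number, exceeded 1 in 18 of 966 cases over the 69 genes and touched 12 genes. In 3 of these genes it exceeded 1 in the same direction in the same-numbered sets of both groups. AT3G03890 had gaps of 1.94 in pSuc set 5 and 1.71 in H2O set 5. AT3G19120 had 2.97 in pSuc set 4 and 1.43 in H2O set 4. AT5G65360 had -1.23 in pSuc set 1 and -1.44 in H2O set 1. Over all 3439 probes these gaps correlated between same-numbered sets at 0.24 to 0.58 in sets 1, 2, 4, 5, 6 and 7, and at 0.02 in set 3. The correlations with sets of other numbers ran from -0.05 to 0.27. In the 69 genes alone the pattern was less regular. Same-numbered sets 1 to 7 correlated at 0.67, 0.21, -0.01, 0.67, 0.38, -0.25 and 0.22, and sets of other numbers at -0.21 to 0.43. These are correlations across probes, which are not independent replicates. What the arrays with the same number share is not given in the labels.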
